A study of Saccharomyces cerevisiae with 3 samples.

Results

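The genes described here encode RNA polymerases I and III of the budding yeast Saccharomyces cerevisiae and the factors that start transcription by them. They were chosen by name, as 36 genes covering the subunits, the initiation factors and one repressor, and were matched by symbol to the annotation of the array. Earlier results of these data were known when the choice was made, which limits every count set beside all genes. Of the 36 genes, 34 had a spot, 32 had a value on at least 2 of 3 arrays and 13 had a value on all 3, out of 5203 named genes in all. RPC10 and RET1 were not analysed here, and RRN5 and BDP1 each had a value on 1 array. The study compared S288C cultures grown in glucose-rich YPD medium at 25 °C. Growing cultures were exposed for 2 h to 2-aminobenzimidazole at 5 mM, added as a 500 mM solution, or grew on equally long with no addition. The labels name no solvent control. Each of the 3 two-colour arrays carried polyadenylated RNA of a treated culture in Cy5 and of an untreated culture in Cy3, from independent biological samples according to the series, and the dyes were exchanged on 0 arrays.

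Polymerase I transcribes the large ribosomal RNA precursor, and polymerase III makes transfer RNAs, the 5S ribosomal RNA and other short RNAs. Each enzyme has its own large subunits that form the active centre, a stalk, and a pair of subunits related to a polymerase II initiation factor, and both contain an assembly pair and small subunits that they share. In growing yeast these enzymes carry most nuclear transcription, and the messenger RNAs of their subunits belong to the large set of ribosome synthesis genes that follow growth rate. The arrays measured those messenger RNAs, not the ribosomal and transfer RNAs the enzymes make.

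Each value is a log2 ratio, treated over control, so that -1 is a 2-fold lower level in the treated culture. The deposited table states neither the log base nor the direction. Base 2 is the customary reading, and treated over control is likely from the order of the channels. If the ratio ran the other way, every higher would be a lower. The ratios do not give the level of one gene against another, and in these bulk cultures fewer cells carrying a transcript and less of it per cell cannot be told apart. The dye cannot be told apart from the treatment either.

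Array 1 was the sparsest, with a value for 58.9% of named genes and for 13 of the 34 polymerase genes on the array (38.2%). Arrays 2 and 3 had a value for 33 of the 34 each. Pearson correlations of 2 arrays were taken across the 3039 genes with a value on every array, which are not independent replicates. They were 0.748 for arrays 1 and 3, 0.52 for arrays 1 and 2 and 0.468 for arrays 2 and 3, so array 2 was the least alike. Means were tested against 0 with limma and Benjamini-Hochberg adjustment over all genes, with a threshold of 0.05. Genes on 3 arrays were tested among the 3039, and genes on 2 arrays in a second fit of the 5043 genes with at least 2 values. All 19 polymerase genes on 2 arrays had arrays 2 and 3, the pair with the lowest correlation.

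After exposure, 8 of the 18 subunit genes with at least 2 values were lower, in both polymerases. Of the 13 genes on 3 arrays, 6 were lower and 0 higher. Across all 3039 genes 9.64% were lower and 8.36% higher at the same threshold. The 6 were RPA49, RPA135 and RPA190 of polymerase I, RPC40 of both enzymes, and RPC31 and RPO31 of polymerase III. Of the 19 genes on 2 arrays, RPA34 and RPA43 of polymerase I were lower and 0 were higher, and 1.82% of the 1982 genes measured on arrays 2 and 3 only were lower in that fit. When all 32 genes with at least 2 values were read from the second fit, 7 were lower and 0 higher, beside 5.83% and 5.39% of the 5043 genes, RPO31 being the one lost. At an unadjusted p below 0.05 in limma, 12 of the 32 genes were lower and 0 higher, beside 15.6% and 13.6% of the 5043 genes. Among the 13 genes on 3 arrays those counts were 7 and 0, beside 19.8% and 16.3% of the 3039 genes.

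The direction on single arrays was counted without the test. Of the 13 genes on 3 arrays, 7 were below 0 on every array (30.6% of the 3039 genes) and 0 were above 0 on every array (25.8%). Of the 19 genes on 2 arrays, 15 were below 0 on both (30.9% of the 1982 genes) and 2, RRN10 and MAF1, were above 0 on both (34.1%). A mean at least 2-fold lower was reached by 10 of the 32 genes, 9 of them subunits, beside 9.16% of the 5043 genes.

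These calls were lost in either pair of arrays that held array 2, the array least correlated with the others. Without array 1, 0 of the 3039 genes passed in limma, and without array 3 also 0, so none of the 13 polymerase genes did. RPA34 and RPA43 have no array 1 value, so their means did not change without it. They too no longer passed (adjusted p = 0.146 and 0.151, limma, 2 arrays). In that fit 0 of the 5021 genes passed. Both the variance in the fit and the adjustment draw on all genes, and their parts were not told apart here. At an unadjusted p below 0.05, 5 of the 13 polymerase genes were lower without array 1 and 7 without array 3, and 0 were higher in either case. Without array 2, 6 of the 13 were lower at an adjusted p below 0.05. These were the same 6 genes, and whichever array was left out their means stayed between -2.46 and -0.84.

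**Figure D1:**
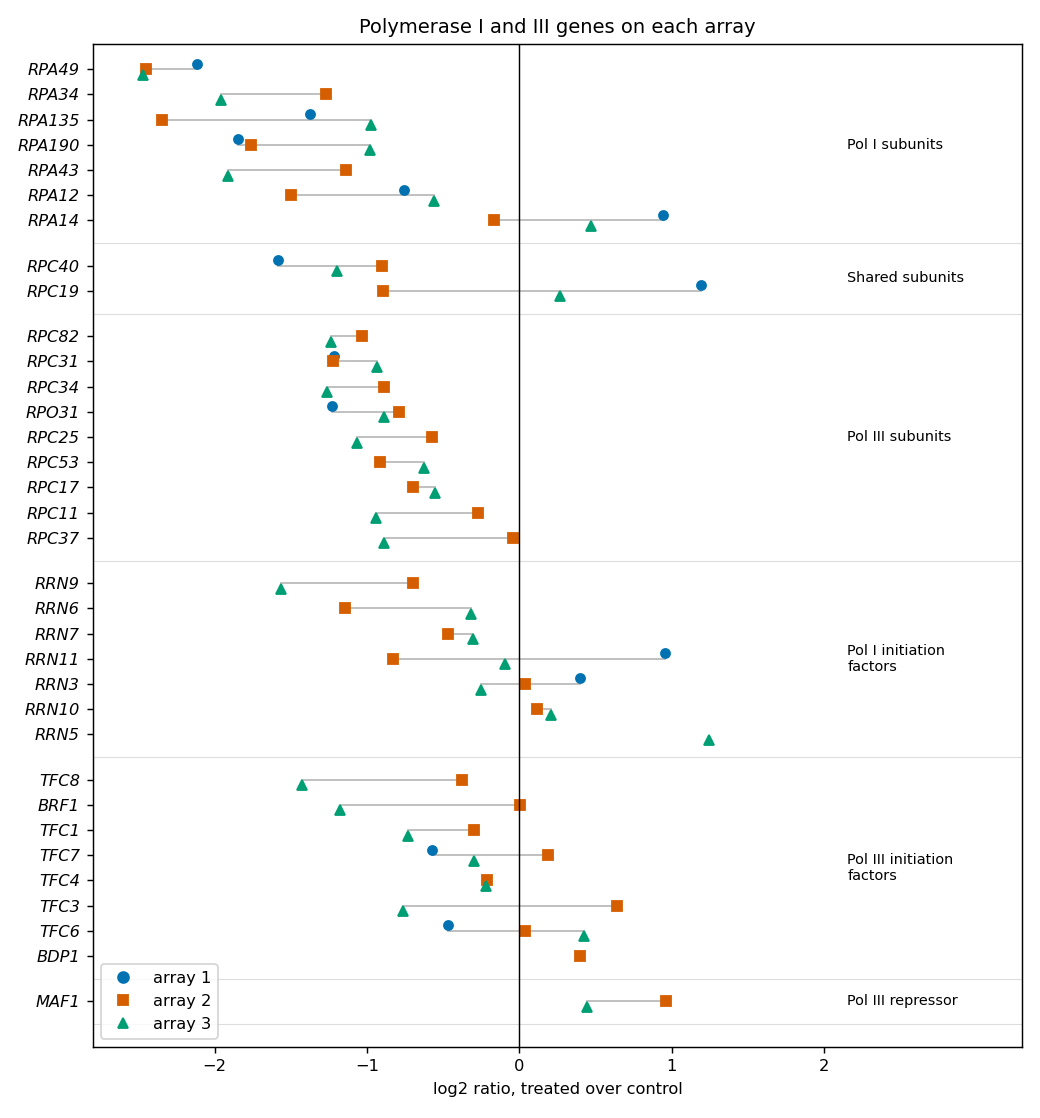
Log2 ratio of treated over control (horizontal axis) on array 1 (circles), array 2 (squares) and array 3 (triangles) for the 34 genes with a value, grouped by role, with a grey line from the lowest to the highest value. All 9 polymerase III subunits lie below 0 on each of their arrays, from -1.27 to -0.043, while the initiation factors lie on both sides of 0.

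Polymerase I subunits had the lowest median of all roles. Of 7 subunits, 5 were lower (3 of the 5 on 3 arrays, and both of the 2 on 2 arrays), and their median over genes was -1.53, beside -0.0064 for all named genes with at least 2 values. The subunit medians were -1.37 on array 1, -1.50 on array 2 and -0.98 on array 3. Those of polymerase III subunits were -1.22 (2 genes), -0.79 and -0.94 (9 genes each), so the enzymes were close on array 3. Among polymerase I subunits only RPA14 had a mean above 0.

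RPA49 (YNL248C), which with Rpa34 forms the pair resembling initiation factor TFIIF, had -2.12, -2.45 and -2.47 on arrays 1, 2 and 3. All 3 arrays were low and close together. It fell to -2.35 ± 0.20 (SD, n = 3), which is 5.09-fold lower (adjusted p = 0.0085, limma), and had the 5th lowest mean of the 3039 genes. It was at least 2-fold lower on every array, as were 3.75% of those genes. Its partner RPA34 (YJL148W) had no value on array 1 and stood at -1.27 on array 2 and -1.96 on array 3. Both values were low, and the mean of -1.62 was 3.07-fold lower (adjusted p = 0.0362, limma, 2 arrays).

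RPA190 (YOR341W) encodes the largest subunit, which with Rpa135 builds the active centre. It had -1.85, -1.76 and -0.98 on arrays 1, 2 and 3, array 3 being the mildest, with a mean of -1.53 ± 0.48 (SD, n = 3; 2.89-fold lower; adjusted p = 0.0201, limma). RPA135 (YPR010C), the second largest subunit, had -1.37, -2.34 and -0.97. Array 2 was the lowest and array 3 again the mildest, with a mean of -1.56 ± 0.70 (SD, n = 3; 2.95-fold lower; adjusted p = 0.0236, limma).

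The stalk consists of Rpa43, which contacts the initiation factor Rrn3, and Rpa14. RPA43 (YOR340C) had no value on array 1, and its -1.14 on array 2 and -1.91 on array 3 gave a mean of -1.53 (2.88-fold lower; adjusted p = 0.0436, limma, 2 arrays). RPA14 (YDR156W) instead had 0.94, -0.17 and 0.47 on arrays 1, 2 and 3. It lay above 0 on 2 arrays, and its mean of 0.42 ± 0.56 (SD, n = 3) had a 95% interval from -0.31 to 1.14 (adjusted p = 0.369, limma). RPA14 stood above RPA43 on both arrays they shared. RPA12 (YJR063W), whose product cuts the nascent RNA and resembles the elongation factor TFIIS, was below 0 on every array with -0.76, -1.50 and -0.56. Its mean of -0.94 ± 0.49 (SD, n = 3) did not pass (adjusted p = 0.0702, limma).

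Rpc40 and Rpc19 form the assembly pair found in both enzymes. RPC40 was lower and RPC19 did not pass. RPC40 (YPR110C) had -1.59, -0.90 and -1.19 on arrays 1, 2 and 3 and fell to -1.23 ± 0.34 (SD, n = 3; 2.34-fold lower; adjusted p = 0.0276, limma). RPC19 (YNL113W) had 1.19, -0.90 and 0.27, the widest range among the 32 genes with at least 2 values. It was high on array 1 and low on array 2, with a mean of 0.19 ± 1.05 (SD, n = 3; 95% interval -0.77 to 1.14; adjusted p = 0.778, limma). The difference of RPC40 from RPC19 was -2.78, -0.0072 and -1.46 on arrays 1, 2 and 3 (mean -1.42 ± 1.38, SD, n = 3), so that they had nearly the same value on array 2. It was not tested.

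**Figure D2:**
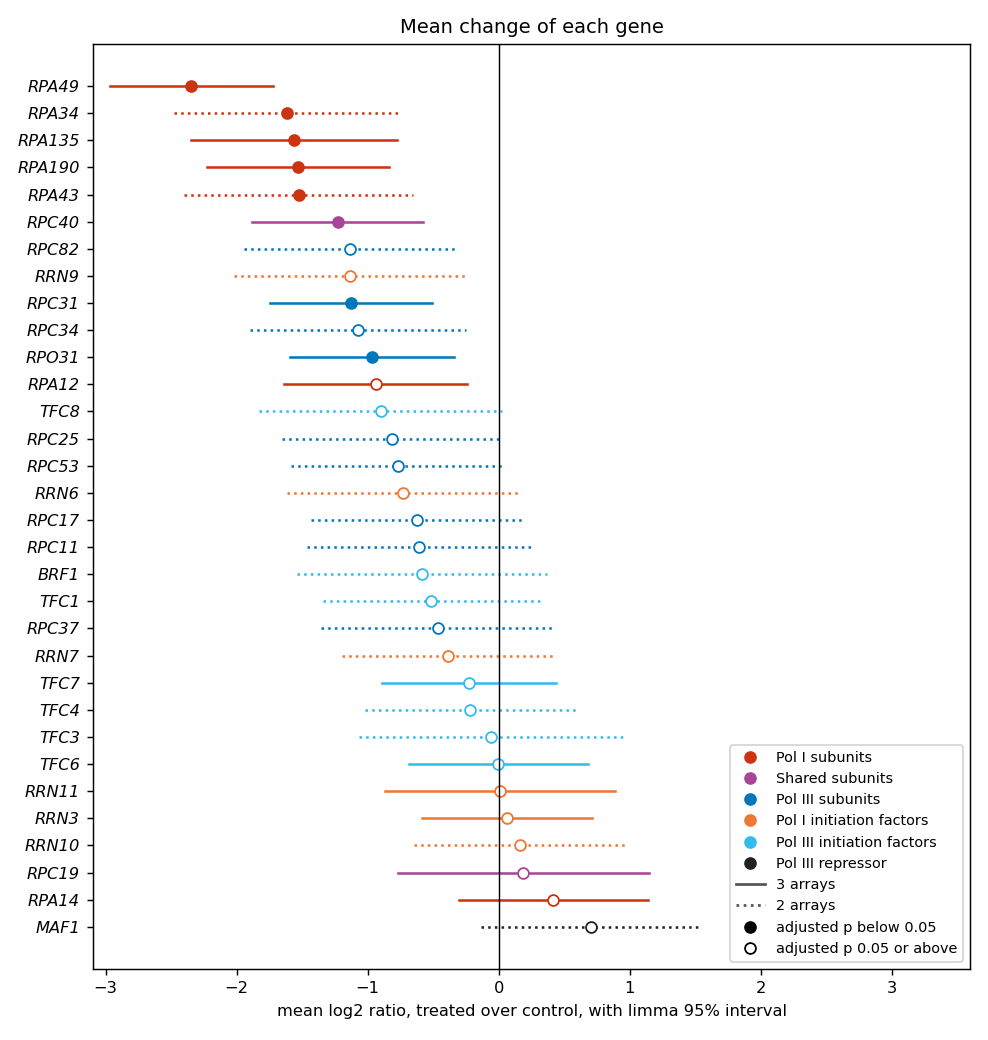
Mean log2 ratio of treated over control for the 32 genes with at least 2 values, with the 95% interval from limma. Solid lines are genes on 3 arrays, dotted lines genes on 2 arrays, and filled points have an adjusted p below 0.05. The 8 filled points are all subunit genes, from RPA49 at -2.35 to RPO31 at -0.97.

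Polymerase III subunits lay in a narrow band below 0. All 9 with values were below 0 on each of their arrays, 2 of them on 3 arrays and 7 on 2 arrays. Over all genes the share was 30.6% and 30.9%, as given above. Their means ran from -1.13 to -0.47 with a median of -0.82. The SD between genes was 0.246 for these means, beside 0.86 for the means of the 7 polymerase I subunits. The latter include RPA14 at 0.42, and the other 6 ran from -2.35 to -0.94. The 2 sets of means also rest on unlike arrays, since 5 of the 7 polymerase I subunits had 3 arrays. By the test, 2 of the 9 polymerase III subunits were lower and 7 did not pass. The 2 were those on 3 arrays, where 9.64% of the 3039 genes were lower. Among the 7 on arrays 2 and 3 only, 0 were lower, beside 1.82% of the 1982 such genes. That count of 0 is near the background share. The 7 were the genes without a value on array 1.

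RPC31 (YNL151C), RPC34 (YNR003C) and RPC82 (YPR190C) encode the trimer through which the enzyme meets its initiation factor TFIIIB. RPC31 had -1.22, -1.23 and -0.94 on arrays 1, 2 and 3 and fell to -1.13 ± 0.17 (SD, n = 3; 2.18-fold lower; adjusted p = 0.0303, limma). Its SD was the smallest of the 13 genes on 3 arrays. RPC82 had -1.03 on array 2 and -1.24 on array 3, a mean of -1.13 like that of RPC31, but did not pass (adjusted p = 0.0810, limma, 2 arrays). RPC34 had -0.89 and -1.27 on the same arrays, and its mean of -1.08 did not pass either (adjusted p = 0.0951, limma, 2 arrays). All values of the trimer thus lay between -1.27 and -0.89, whether or not the gene passed.

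RPO31 (YOR116C), the largest subunit, had -1.23, -0.79 and -0.89 on arrays 1, 2 and 3 and a mean of -0.97 ± 0.23 (SD, n = 3; 1.96-fold lower; adjusted p = 0.0457, limma). This call was close to the threshold. It was lost with median-centred arrays (adjusted p = 0.0526) and among the 5043 genes with at least 2 values (adjusted p = 0.0557). RPC53 (YDL150W) and RPC37 (YKR025W) encode the pair used for termination and reinitiation, the counterpart of Rpa49 and Rpa34. RPC53 had -0.91 and -0.63 on arrays 2 and 3 (mean -0.77; adjusted p = 0.191, limma, 2 arrays). RPC37 had -0.043 and -0.89 (mean -0.47; adjusted p = 0.456, limma, 2 arrays), so that only array 3 was clearly low. Both means were above those of RPA49 and RPA34.

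Of the stalk genes, RPC25 (YKL144C) had -0.57 and -1.07 on arrays 2 and 3 (mean -0.82; adjusted p = 0.177, limma, 2 arrays). RPC17 (YJL011C) had -0.70 and -0.56 (mean -0.63; adjusted p = 0.277, limma, 2 arrays). RPC11 (YDR045C), whose product cuts RNA and acts in termination, had -0.27 and -0.94 (mean -0.61; adjusted p = 0.317, limma, 2 arrays). These 3 genes were below 0 on both arrays, and each of their 95% intervals reached past 0, the highest bound being 0.25 for RPC11.

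Counterpart subunits of the 2 enzymes could be set side by side on the same arrays for 4 of the 5 pairs listed. The difference of RPA190 from RPO31 (polymerase I minus polymerase III, log2) was -0.62, -0.97 and -0.10 on arrays 1, 2 and 3, with a mean of -0.56 ± 0.44 (SD, n = 3). RPA43 was below RPC25 by similar amounts on both shared arrays, with a mean difference of -0.71. RPA12 minus RPC11 changed sign between arrays 2 and 3, from -1.23 to 0.38. RPA14 minus RPC17 ran the other way, with 0.53 and 1.02 and a mean of 0.78. An exact sign-flip test (two-sided) gave p = 0.25 for the pair on 3 arrays, the smallest such a design allows. For the 3 pairs on 2 arrays it cannot go below 0.5, and adjusted over the 4 pairs the lowest value was 0.667. With so few arrays this test could not pass for any pair, whatever the values.

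The initiation factors had a median nearer to 0 than the subunits, and 0 of the 13 with at least 2 values passed in either direction (limma). Of these 13 factors 9 were on 2 arrays, where 1.82% of genes were lower, and 4 on 3 arrays, so that a count of 0 is near the background share. At an unadjusted p below 0.05 only RRN9 was lower. Their median over genes was -0.23, beside -1.02 for the 18 subunits. On arrays 2 and 3 the factor medians were -0.21 and -0.30 and the subunit medians -0.91 and -0.96. Of the 13 factor means 10 were below 0, all 7 of polymerase III among them, beside 2537 of the 5043 genes. Of the 9 factors on 2 arrays, 6 were below 0 on both and 1 above, beside 30.9% and 34.1% of the 1982 genes. Of the 4 on 3 arrays, 0 were below 0 on every array, beside 30.6% of the 3039 genes. The difference between factors and subunits was not tested, since the sets were chosen with results in view.

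Of the polymerase I factors, RRN3 (YKL125W) makes the enzyme competent to start. It had 0.39, 0.040 and -0.25 on arrays 1, 2 and 3, with a mean of 0.061 ± 0.32 (SD, n = 3; 95% interval -0.59 to 0.71; adjusted p = 0.896, limma). Its values thus straddled 0. The core factor that recruits it at the ribosomal DNA promoter consists of Rrn6, Rrn7 and Rrn11. RRN6 (YBL014C) had -1.15 and -0.32 on arrays 2 and 3 (adjusted p = 0.246, limma, 2 arrays). RRN7 (YJL025W) had -0.47 and -0.30 (adjusted p = 0.498, limma, 2 arrays). RRN11 (YML043C) had 0.95, -0.83 and -0.095 on arrays 1, 2 and 3, which like RPC19 was high on array 1 and low on array 2 (adjusted p = 0.989, limma).

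The upstream activating factor, which binds further from the start site, includes Rrn5, Rrn9 and Rrn10. RRN9 (YMR270C) had -0.70 and -1.57 on arrays 2 and 3, the lowest mean of any initiation factor at -1.13, and did not pass (adjusted p = 0.102, limma, 2 arrays). RRN10 (YBL025W) had 0.12 and 0.21 (adjusted p = 0.798, limma, 2 arrays). RRN5 (YLR141W) had a single value of 1.24, on array 3. The 3 genes of this complex therefore lay on both sides of 0 on array 3.

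Polymerase III is recruited by TFIIIC, which binds the internal promoters of transfer RNA genes, and by TFIIIB, which TFIIIC places upstream. The 6 TFIIIC genes had a median of -0.22, and 0 of them passed (limma). TFC8 (YPL007C) was lowest, with -0.38 and -1.43 on arrays 2 and 3 (mean -0.90; adjusted p = 0.180, 2 arrays), and TFC1 (YBR123C) followed with -0.30 and -0.73 (adjusted p = 0.379, 2 arrays). TFC4 (YGR047C) had -0.21 and -0.22 (adjusted p = 0.723, 2 arrays), the closest agreement of 2 arrays among these genes. TFC3 (YAL001C), the gene of the largest subunit, had 0.64 and -0.76 (adjusted p = 0.946, 2 arrays), opposite signs on the 2 arrays.

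TFC7 (YOR110W) had -0.57, 0.18 and -0.30 on arrays 1, 2 and 3 (adjusted p = 0.600, limma). TFC6 (YDR362C) had -0.47, 0.036 and 0.42, so that its mean of -0.0038 hid a spread on both sides of 0 (adjusted p = 0.994, limma). Of TFIIIB, BRF1 (YGR246C) had 0.0065 on array 2 and -1.18 on array 3 (adjusted p = 0.386, limma, 2 arrays). BDP1 (YNL039W) had a single value of 0.40, on array 2. The third TFIIIB subunit is the TATA-binding protein, which all 3 nuclear polymerases use. Its gene SPT15 (YER148W) had -0.79, -1.30 and -1.98 on arrays 1, 2 and 3 and was lower, with a mean of -1.36 ± 0.60 (SD, n = 3; adjusted p = 0.0299, limma).

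MAF1 (YDR005C) encodes the repressor that binds polymerase III when growth conditions worsen and is controlled largely by its phosphorylation. Its value was 0.96 on array 2 and 0.44 on array 3, with none on array 1. Both were above 0, and its mean of 0.70 was the highest of the 32 genes. It did not pass (95% interval -0.14 to 1.54; adjusted p = 0.242, limma, 2 arrays).

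**Figure D3:**
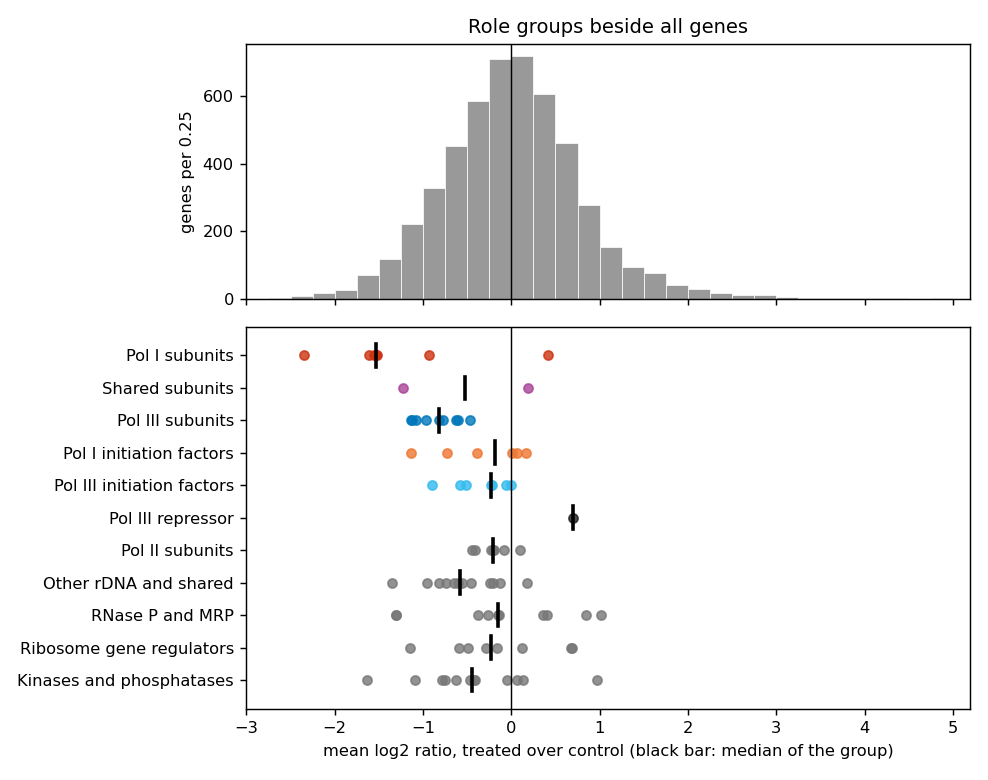
Upper panel, number of genes per 0.25 of mean log2 ratio (treated over control) for the 5043 genes with at least 2 values. Lower panel, the mean of each gene in the 6 role groups (coloured) and in 5 further lists (grey), with a black bar at the median of the group, from -1.53 for polymerase I subunits to 0.70 for the single repressor gene.

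Neighbouring parts of the transcription machinery were described for comparison. The 7 subunits that belong to polymerase II alone had a median of -0.20, and 0 passed (limma). Of the 7, 6 were on 3 arrays, where 9.64% of the 3039 genes were lower and 8.36% higher. In so short a list a count of 0 cannot set it apart from all genes. RPB2 (-0.45 ± 0.23, SD, n = 3; adjusted p = 0.269) and RPO21 (-0.41 ± 0.50, SD, n = 3; adjusted p = 0.366), the genes of its 2 largest subunits, had the lowest means. Set against RPO21 on the same arrays, RPA190 was lower by a like amount on each, with differences of -1.30, -0.94 and -1.13 on arrays 1, 2 and 3 (mean -1.12 ± 0.18, SD, n = 3). The differences of RPO31 from RPO21 were less even, with -0.68, 0.029 and -1.04 (mean -0.56 ± 0.54, SD, n = 3). These differences were taken after the values had been seen and were not tested.

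Of 12 further genes for shared subunits and for factors of ribosomal DNA and polymerase III transcription, SPT15 was lower, 11 did not pass and 0 were higher, with a median of -0.58. Of the 12, 7 were on 3 arrays, where 9.64% of the 3039 genes were lower and 8.36% higher. The other 5 were on arrays 2 and 3 only, where 1.82% of genes were lower. A count of 1 is therefore near the background share. Among them, 4 encode subunits that all 3 polymerases contain, and they are named here after their values were seen. RPO26 had a mean of -0.96 ± 0.49 (SD, n = 3; adjusted p = 0.0655, limma), RPB8 -0.82 ± 0.51 (SD, n = 3; adjusted p = 0.101, limma), RPB10 -0.74 (adjusted p = 0.223, limma, 2 arrays) and RPB5 -0.24 ± 0.46 (SD, n = 3; adjusted p = 0.596, limma). None of the 4 passed, and 3 were below 0 on each of their arrays. Over all genes that share was 30.6% on 3 arrays and 30.9% on arrays 2 and 3 only.

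Of 16 kinases, phosphatases and TOR components that act on Maf1, polymerase III or ribosomal DNA transcription, 12 had at least 2 values and 0 passed (limma), with a median of -0.45. Of the 12, 7 were on 3 arrays, where 9.64% of genes were lower and 8.36% higher. On arrays 2 and 3 only, 1.82% of genes were lower. Here and in the short lists that follow, a count of 0 cannot set a list apart from all genes. TPK3, a catalytic subunit of protein kinase A, had -0.78 and -2.49 on arrays 2 and 3 (adjusted p = 0.0663, 2 arrays). CKA2, a catalytic subunit of casein kinase 2, had -0.80 and -1.39 (adjusted p = 0.0970, 2 arrays). Of 8 regulators of ribosome synthesis genes 0 passed (limma), with a median of -0.23. TOD6, a repressor that binds the PAC promoter element of polymerase subunit and ribosome assembly genes, had -1.14 on both arrays 2 and 3 (adjusted p = 0.0774, 2 arrays). SFP1, an activator, had 0.28 and 1.10 (adjusted p = 0.271, 2 arrays). Of 11 proteins of RNase P and RNase MRP, which process transfer and ribosomal RNA precursors, 10 had at least 2 values and 0 passed (limma), with a median of -0.15. RPP1 and POP3 had the largest means in size, both -1.31 (adjusted p = 0.0623 and 0.0791, 2 arrays). At an unadjusted p below 0.05, genes of these lists lay on both sides of 0, with TPK2 at 0.97 and POP4 at 1.02 named after their values were seen.

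The position of the polymerase genes in the genome was not used to choose them. In the order of RefSeq protein-coding genes of assembly R64, RPA43 and RPA190 lie side by side and are transcribed away from each other, so that one intergenic stretch lies upstream of both. Their means were both close to -1.53, but RPA43 had values on arrays 2 and 3 only. On those 2 arrays the mean of RPA190 was -1.37. Array 3 was the lower array for RPA43 and the milder one for RPA190. Counting that pair once, 17 divergent pairs held a polymerase gene with both genes measured on at least 2 arrays. In 10 of the 17 (58.8%) both means were below 0, and in 13 (76.5%) the signs were the same. Over all 1085 such pairs in the genome the shares were 29.7% and 55.1%. These counts are descriptive, and the members' own low values raise the first of them. They include TFC6 and RRN11, whose means lie within 0.01 of 0 and change sign with centred or scaled arrays. Without those 2 pairs, a choice made after seeing the data, both means were below 0 in 9 of 15 and the signs were the same in 11 of 15.

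The neighbour of RPA49 is CRS1 (YNL247W), the gene of cysteinyl-tRNA synthetase. It had -1.96, -2.39 and -1.78 on arrays 1, 2 and 3 and was lower, with a mean of -2.05 ± 0.31 (SD, n = 3; adjusted p = 0.010, limma), close to the -2.35 of RPA49. Among polymerase III subunits, 3 have divergent neighbours with roles in ribosome assembly. RPC25 lies beside LTV1 (mean -1.10; adjusted p = 0.0870, 2 arrays), RPC37 beside the helicase gene DBP7 (mean -0.69; adjusted p = 0.234, 2 arrays) and RPC53 beside SAS10 (mean -0.74; adjusted p = 0.208, 2 arrays; limma throughout). All 3 neighbours were below 0 on both arrays without passing the test, beside 30.9% of the 1982 genes on arrays 2 and 3 only. RPC82 lies beside QCR2, with a mean of -0.49 (adjusted p = 0.261, limma). The neighbours of RPC34 and RPO31, given below, had means above 0.

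RPA14, the polymerase I subunit with a mean above 0, lies beside CPR1 (YDR155C), a cyclophilin gene, which had 1.21, 1.41 and 1.28 on arrays 1, 2 and 3 and was higher (mean 1.30 ± 0.10, SD, n = 3; adjusted p = 0.0213, limma). Other pairs did not match. RPC34 at -1.08 lies beside SWM2 at 0.49, RPA12 at -0.94 beside NTA1 at 0.30, and RPO31 at -0.97 beside the proteasome gene RPT5 at 0.076. The neighbours were looked at after the polymerase values had been seen.

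**Figure D4:**
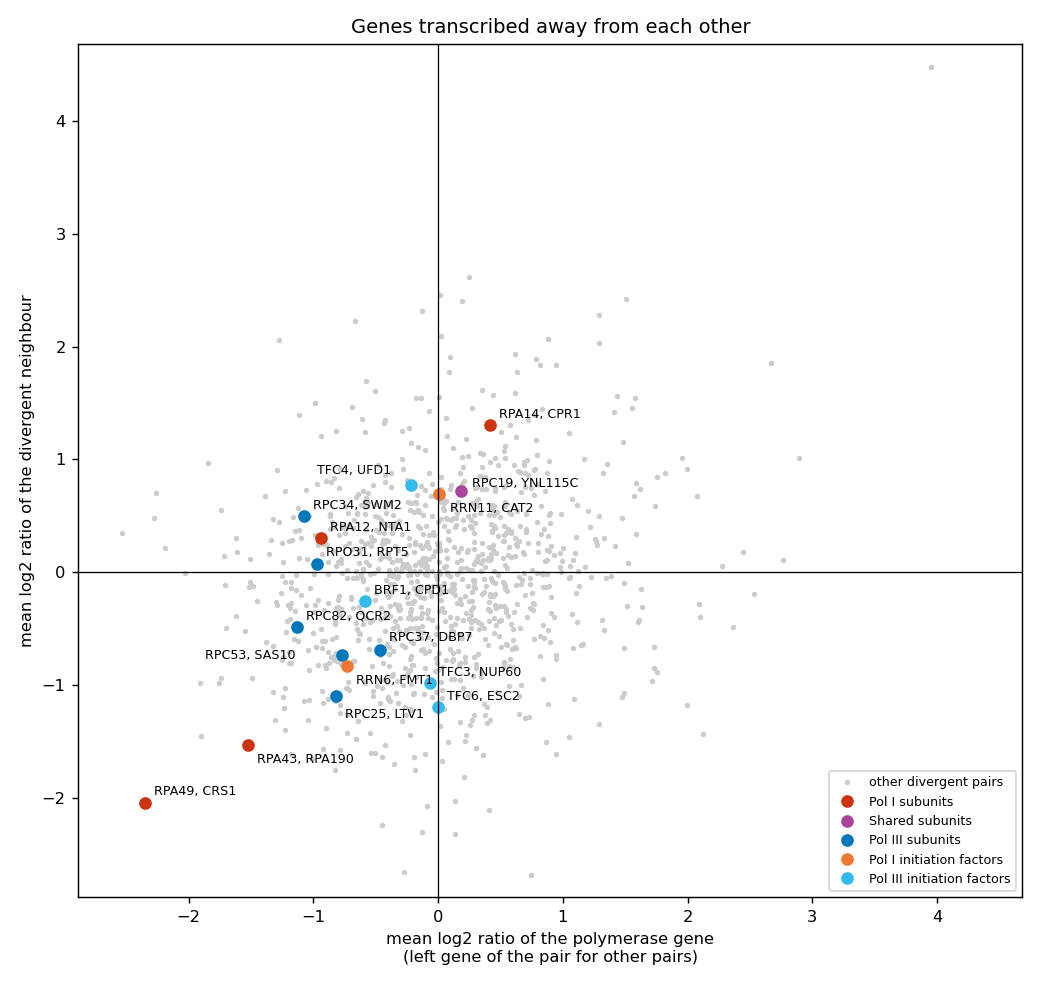
Mean log2 ratio of treated over control of a polymerase gene (horizontal axis) and of the adjacent gene transcribed away from it (vertical axis), for 17 pairs in colour by role and the other divergent pairs of the genome in grey. RPA49 with CRS1 and RPA43 with RPA190 lie at the lower left of the coloured pairs and RPA14 with CPR1 at the upper right, while RPC34, RPA12, RPO31 and TFC4 have neighbours of the opposite sign.

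The lack of array 1 values fell unevenly over roles. It affected 2 of the 7 polymerase I subunits, 7 of the 9 measured polymerase III subunits and 9 of the 13 initiation factors with at least 2 values. On array 2, the 13 genes that also had an array 1 value had a median of -0.90 and the 20 others -0.42, while on array 3 the medians were -0.56 and -0.83. The order thus differed between the 2 arrays. For genes on 2 arrays the test had 1 residual degree of freedom beside the prior, and the mean of RPC31 near -1.1 passed on 3 arrays while those of RPC82 and RPC34 did not pass on 2. The part of the missing array in the lower number of polymerase III calls was not tested further.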

How the data were processed

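Messenger RNA was compared on 3 two-colour arrays, each of a treated against an untreated culture, forming 1 group. The deposited table gives a log2 ratio per spot and array (the base is taken, not stated). Per the labels' description, the authors applied LOWESS normalisation using spots of flag value 0. The background correction and the scanner were not given in the sources used here. No intensities were used, so signal over background is unknown, and the number of arrays limits the precision.

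Spots were named through the platform annotation and its Entrez identifiers in the RefSeq table of assembly R64, and a gene with several spots took their mean on each array. Ratios were set against 0 in R 4.3.3 with limma 3.58.1 (intercept only, eBayes, two-sided, Benjamini-Hochberg), once for genes on 3 arrays (prior degrees of freedom 5.31) and once for genes on at least 2 (6.36). Pairs of counterpart subunits were compared with an exact sign-flip permutation test. Alternatives were centred and scaled arrays, a robust variance, array weights, a threshold of 0.01 and leaving out each array.

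The members and lists were chosen with earlier results of these data known. All members with at least 2 values are named. Of each other list the text names genes past the threshold or, with none, the 2 largest means in size, and says where others were added. Promoter and protein sequences were not used here.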

Additional observations from a re-analysis of the deposited data

How the results depend on the processing

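Among genes on 3 arrays, the count of lower polymerase genes was 6, and 5 to 6 with centred arrays, scaled arrays, a robust variance or array weights. Among genes on at least 2 arrays it was 7, and 7 to 8 under the same settings. At an adjusted p below 0.01 it was 1 in either fit. Leaving out each array in turn gave 0 to 6 lower genes in both fits, with 0 without array 1 or array 3, where 0 of all genes passed (limma; smallest adjusted p 0.168 and 0.117 for genes on 3 arrays, with 635 and 715 genes at an unadjusted p below 0.05). No gene of the 32 was higher under any of these settings. Signs changed only for genes with means near 0. RRN11 was -0.026 with scaled arrays and TFC6 was 0.040 with centred arrays. With 1 array left out, RPC19 ranged from -0.31 to 0.73, RRN3 from -0.11 to 0.22, RRN11 from -0.46 to 0.43 and TFC6 from -0.22 to 0.23. Genes without array 1 have no value when array 2 or array 3 is left out. Over all genes, array weights raised the number of lower genes with at least 2 values from 294 to 450 and of higher genes from 272 to 415, and a threshold of 0.01 left 16 and 30. These counts over all genes were added after seeing the data. No paired analysis was possible because there is 1 group and each ratio already holds its own control. Signal over background is unknown here.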
